A study of Homo sapiens with 18 samples.

Results

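The genes described here are 69 transcripts of SW620 cells, a human line derived from a colorectal cancer, that rose after heat shock and stayed high during recovery. They were selected on the scramble libraries, by mean CPM, the count of a gene scaled to the total of its library. A gene was kept when its mean was at least 5 CPM after heat shock, when heat shock and recovery were each at least 2 times the control, and when recovery lay between 0.75 times heat shock and an upper limit slightly over 1.3 times, which fell between 1.327 for CLK3, kept, and 1.331 for ATF3, left out. Symbols beginning with HSP, DNAJ, BAG, HIST, KLF, DUSP, FOS, JUN, EGR and IER, which cover the classical chaperones, histones and immediate early families, were left out. This gave 69 of the 26485 gene symbols in the table, and all 69 were among the 12832 genes expressed highly enough to be tested.

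RNAseq had been run on cells transfected with a scramble siRNA or with siRNA against the protease Lonp1 (siLonp1), and the study asked whether loss of Lonp1 changes transcription after heat. Each arm comprised cells left at 37 °C throughout (Ctrl), cells heated to 42 °C during 1 h (HS), and heated cells given a further 1 h of recovery at 37 °C (HS+REC), with 3 independent biological replicates in each of the 6 groups. All 18 libraries therefore share the same line, the growth medium and a transfection, and no untransfected cells were analysed here. Which of the siRNAs against Lonp1 named in the methods was used for RNAseq is not given in the sources used here.

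Cells answer heat through heat shock factor 1 (HSF1), a transcription factor that is released from chaperones when proteins unfold, forms trimers and binds heat shock elements, which are inverted repeats of the bases GAA. Chaperone transcripts are the best known targets, but heat also raises transcripts for protein degradation, growth arrest, growth factor signalling and RNA processing, while the transcription and splicing of many other genes are held back. During recovery a transcript falls when its synthesis stops and its RNA is unstable. It stays high when synthesis goes on or the RNA is long-lived, and total RNA levels do not tell these apart.

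Library totals ranged from 30815860 to 47279297 counts, with a median of 40847024.5. LONP1 was measured at 196 to 238 CPM in the scramble libraries and at 11.2 to 27.6 CPM in the siLonp1 libraries, which did not overlap. Within siLonp1 it read 19.2 to 22.5 CPM in Ctrl, 11.2 to 11.49 in HS and 24.3 to 27.6 in HS+REC, without overlap of the conditions. In scramble the conditions overlapped. The residual LONP1 level thus differed between the groups compared within siLonp1, and its part in those contrasts was not tested. Of 10 markers of colon epithelium, 7 had a median above 1 CPM over the libraries, among them EPCAM, CDH1, KRT8 and VIL1, whereas CDX1 had no count in any library and the medians of KRT20 and LGALS4 lay under 1 CPM. PTPRC and CD3E of leukocytes, COL1A2 and DCN of fibroblasts and CDH5 of endothelium were at or near 0 in every library, but others of these lists were detected, with 10.9 to 17.6 CPM of CD68 (leukocytes), 0.909 to 3.51 CPM of PDGFRB (fibroblasts) and 0.483 to 1.26 CPM of VWF (endothelium). The summed level of 4 fibroblast markers nevertheless differed between conditions, with 9.49 to 11.8 CPM in Ctrl scramble and 30.5 to 31.6 CPM in HS+REC scramble, most of it COL1A1. Its part in the results below was not tested. The levels below are averages over all cells of a culture, in which fewer expressing cells and less RNA per cell cannot be told apart.

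In scramble-treated cells the members were mostly raised a few fold, with a handful of genes raised far more. The ratio of HS to Ctrl had a median of 2.72 over the 69 members and was at least 2.001. It was under 3 in 44 members and above 4 in 17. The ratio of HS+REC to Ctrl had a median of 2.87, and that of HS+REC to HS a median of 1.06. These values chose the members and are given as a description, with no test. Of the 66 members described by name or value here, those with the highest ratio of HS to Ctrl were DDIT4 (14.8), which encodes an inhibitor of mTORC1, DEDD2 (14.6), which encodes a death effector domain protein, and RGS2 (9.26), which encodes a regulator of G protein signalling. The members took 0.181% to 0.186% of the counts of a Ctrl scramble library, 0.578% to 0.589% of a HS library and 0.535% to 0.617% of a HS+REC library.

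**Figure D1:**
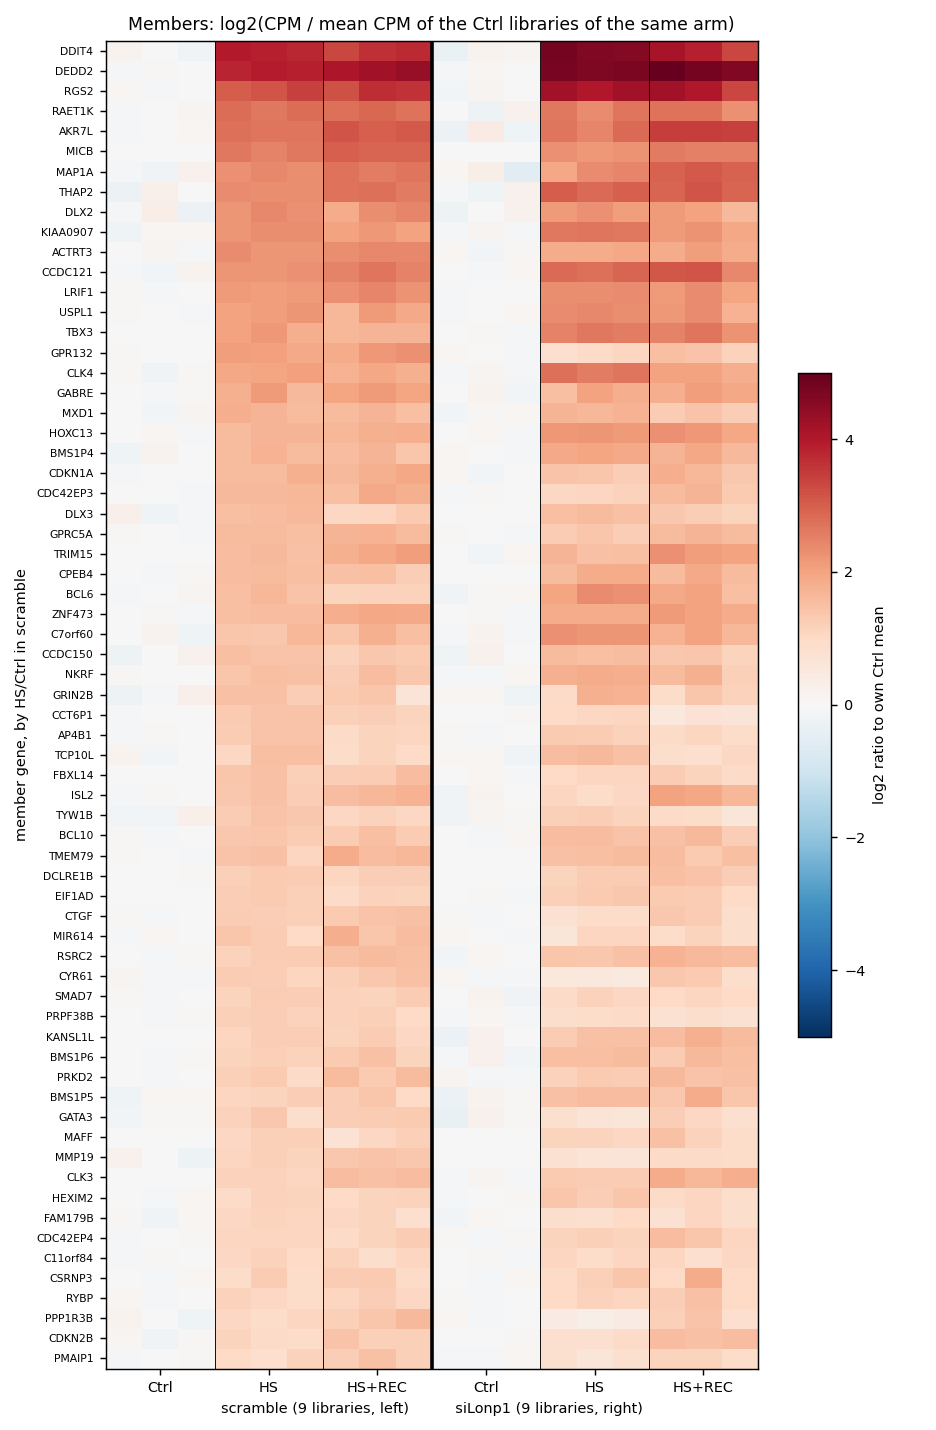
Heat map of 66 members (rows, ordered by the ratio of HS to Ctrl in scramble) in the 18 libraries (columns, 3 for each group, scramble on the left and siLonp1 on the right). Colour gives the log2 ratio of a library's CPM to the mean of the 3 Ctrl libraries of its own arm. The HS and HS+REC columns are red in both arms for all rows, most strongly for DDIT4, DEDD2 and RGS2, whose ratios of HS to Ctrl ran from 9.26 to 14.8 in scramble and from 17.8 to 26.2 in siLonp1.

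The thresholds cut through a continuum. GATA3 entered at 5.06 CPM in HS, and SHH was left out at 4.97 CPM. PMAIP1 lay just inside the limit on the ratio of HS to Ctrl (2.001), and MSX1 just outside it (1.98). For the ratio of HS+REC to Ctrl, MAFF lay inside (2.002) and MICA outside (1.99), and for the ratio of HS+REC to HS the genes on both sides of a limit were DLX3 (0.756) and RND1 (0.73) at the lower end and CLK3 (1.327) and ATF3 (1.331) at the upper end. Of the 112 genes that met every condition but the last, 69 were members, 8 had fallen further in HS+REC and 35 had risen further. Another 23 genes met these conditions but belong to the families left out, and 6 of them, DNAJB1, DNAJB4, HSPA1B, HSPA1L, HSPB1 and HIST1H2BD, also lay within the band.

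Promoters were examined because the members move together under a stress whose main transcription factor has a known sequence. RefSeq's promoter table for GRCh38.p14 (250 bases before to 50 after a start) held 48 of the 69 members. The full heat shock element was searched on both strands as 3 inverted GAA repeats with 2 free bases between them, and it was found in 0 of 48 windows, against 0.487% of all 27305 windows and 0.285% of the 10180 windows of genes tested. The dimers GAANNTTC and TTCNNGAA, each contained in the full element, were found in 10 of 48 (20.8%), against 13.7% of all windows and 9.74% of those of genes tested. The 10 genes were BCL6, CCDC121, DDIT4, GPR132, ISL2, KANSL1L, MICB, NKRF, RSRC2 and RYBP. DEDD2 and RGS2, which rose strongly as DDIT4 did, had windows without a dimer. The matches are of letters, not measured binding. The AP-1 motif TGANTCA was in 0 of 48 windows (7.76% of all and 4.38% of tested), the serum response element in 0 (1.29% and 1.05%), the CRE motif TGACGTCA in ISL2 and MAFF (1.98% and 3.31%), and the TATA box TATAAA in CTGF, KIAA0907, TCP10L and THAP2 (12% and 5.41%).

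For 3 of these genes the 250 bases before RefSeq's start are shown 5′ to 3′ on the strand of the gene, with the dimers in capitals. DDIT4 is shown as one of the most strongly raised members, NKRF because its window holds 2 dimers, and ISL2 because it rose most from HS to HS+REC in siLonp1. The windows are chr10:72273674-72273923, plus strand, for DDIT4, chrX:119606425-119606674, minus strand, for NKRF and chr15:76336523-76336772, plus strand, for ISL2. The first dimer begins 232 bases before the start in DDIT4, 174 in NKRF and 94 in ISL2.
DDIT4: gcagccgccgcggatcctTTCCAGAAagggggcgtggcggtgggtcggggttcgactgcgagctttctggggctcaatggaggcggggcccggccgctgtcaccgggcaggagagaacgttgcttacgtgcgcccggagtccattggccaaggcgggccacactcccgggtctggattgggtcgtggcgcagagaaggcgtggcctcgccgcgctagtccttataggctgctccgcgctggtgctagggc
NKRF: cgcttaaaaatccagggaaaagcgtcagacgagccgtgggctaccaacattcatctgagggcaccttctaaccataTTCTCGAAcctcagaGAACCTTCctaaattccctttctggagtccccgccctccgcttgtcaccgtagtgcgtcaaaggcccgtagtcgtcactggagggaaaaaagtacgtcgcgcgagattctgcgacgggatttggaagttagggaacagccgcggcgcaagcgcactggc
ISL2: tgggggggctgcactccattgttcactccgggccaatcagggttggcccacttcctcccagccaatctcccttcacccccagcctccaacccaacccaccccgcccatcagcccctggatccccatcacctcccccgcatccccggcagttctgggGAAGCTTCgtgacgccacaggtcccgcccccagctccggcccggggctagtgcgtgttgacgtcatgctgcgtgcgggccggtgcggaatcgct

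The siLonp1 values did not enter the rule that chose the members, so the same contrasts could be tested there. The members were nonetheless chosen with earlier results of these data known, and the test took its spread from all 18 libraries, scramble included. With edgeR's quasi-likelihood test and Benjamini-Hochberg adjustment over the 12832 genes, 59 of the 69 members (85.5%) were raised more than 2-fold by HS in siLonp1 at an adjusted p of at most 0.05, where 3.42% of all genes tested were called. All 69 members were raised at any fold (20.2% of all genes). In HS+REC, 64 members (92.8%) were raised more than 2-fold (4.51% of all genes) and all 69 at any fold (24.6%). Both calls were made for 56 members (81.2%, against 2.39% of all genes), with the caution that the 2 contrasts share the Ctrl siLonp1 libraries. The median log2 fold change over members was 1.56 for HS and 1.59 for HS+REC, while the medians over all genes tested lay near 0 in both contrasts.

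The ratio of mean CPM of HS to Ctrl had a median of 2.86 in siLonp1, beside 2.72 in scramble, and was lowest at 1.31. It was higher than in scramble for 37 of the 69 members. Of the members described here, the 3 with the highest ratio in scramble also had the highest in siLonp1, at 26.2 for DEDD2, 25.6 for DDIT4 and 17.8 for RGS2. When the selection rule was applied to the siLonp1 means in place of the scramble means, it gave 71 genes, of which 40 were members (58.0% of the 69 and 56.3% of the 71). Since the scramble values chose the members, the differences between arms are given as values and were not tested.

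**Figure D2:**
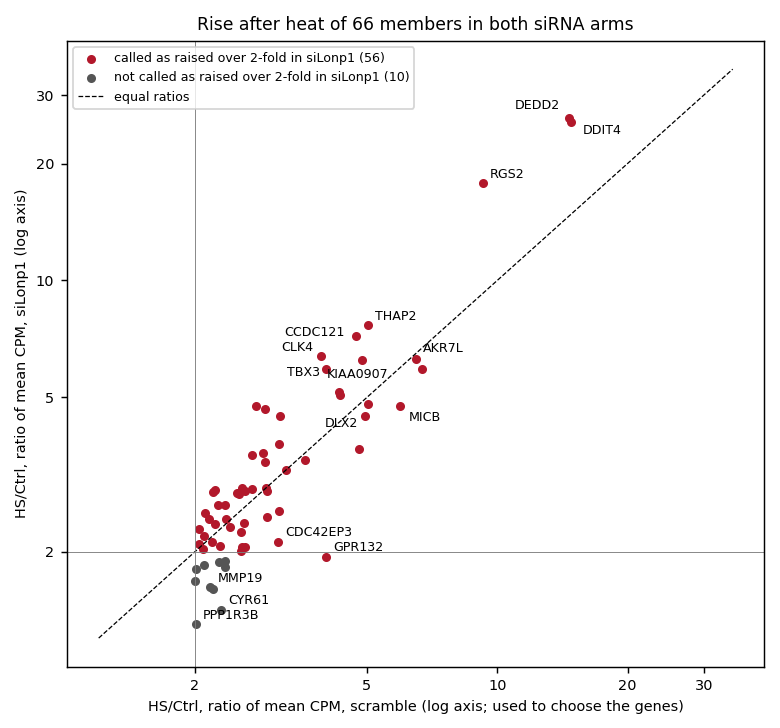
Ratio of mean CPM in HS to that in Ctrl for 66 members, in scramble (x axis, log scale, used to choose the genes) and in siLonp1 (y axis, log scale). Red points are the 56 of these raised more than 2-fold in siLonp1 at an adjusted p of at most 0.05, grey points the other 10, and grey lines mark a ratio of 2. DEDD2, DDIT4 and RGS2 stand apart at the upper right, and PPP1R3B (1.31) and CYR61 (1.42) lie lowest in siLonp1.

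The groups by role that follow were put together after the values had been seen. Each count of members called as raised in them stands beside 3.42% of all genes tested for HS and 4.51% for HS+REC. Over all 69 members the shares were 85.5% and 92.8%, so nothing about a role is read from these counts. The ubiquitin and SUMO systems, which tag proteins for degradation or relocation, are described by 3 members, USPL1, FBXL14 and TRIM15, and all 3 were called as raised by HS and by HS+REC in siLonp1. USPL1, a SUMO isopeptidase of Cajal bodies, was measured at 32.8, 31.8 and 30.6 CPM in Ctrl scramble, 129, 135 and 145 in HS and 98.9, 139.9 and 118 in HS+REC. In siLonp1 it rose from 36.4, 39.3 and 41.5 CPM in Ctrl to 202, 204 and 197 in HS, by 2.41 (standard error 0.12, adjusted p = 1.77e-13) on the log2 scale, and stood at 173, 201 and 129 in HS+REC. FBXL14, an F-box protein of an SCF ubiquitin ligase, and TRIM15, of the TRIM family of ubiquitin ligases, rose by HS with log2 fold changes of 1.09 and 1.60.

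Genes of cell death and growth arrest made up 6 members, DEDD2, DDIT4, BCL10, CDKN1A, CDKN2B and PMAIP1. In siLonp1, 4 of them were called as raised by HS and all 6 by HS+REC. DEDD2 (chr19:42198598-42220140, minus strand, hg38) was measured at 21.5, 23.4 and 21.7 CPM in Ctrl scramble, 311, 334 and 327 in HS and 367, 407 and 459 in HS+REC. Its levels in siLonp1 were 14.9, 16.4 and 15.2 CPM in Ctrl, 421, 392 and 405 in HS and 517, 427 and 384 in HS+REC. In Ctrl all 3 siLonp1 libraries were lower than all 3 scramble libraries, in HS all 3 were higher, and in HS+REC the arms overlapped. The log2 fold change of DEDD2 in siLonp1 was 4.76 (standard error 0.11, adjusted p = 2.25e-20) for HS and 4.92 (standard error 0.11, adjusted p = 1.02e-20) for HS+REC.

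DDIT4 (chr10:72273919-72276036, plus strand), whose product restrains mTORC1 under stress, changed most of these genes from HS to HS+REC in siLonp1, though not in scramble, where the ratios of DEDD2 and PMAIP1 lay about as far from 1. Scramble libraries held 22.2, 19.5 and 17.8 CPM in Ctrl, 314, 296 and 274 in HS and 199, 247 and 266 in HS+REC. Those of siLonp1 held 10.9, 15.7 and 15.1 CPM in Ctrl, 385, 345 and 338 in HS and 241, 203 and 141 in HS+REC. Within the siLonp1 arm each HS+REC library lay under each HS library and far above Ctrl. DDIT4 rose in siLonp1 by 4.73 (standard error 0.17, adjusted p = 1.72e-16) on the log2 scale in HS and changed from HS to HS+REC by -0.83 (standard error 0.14, adjusted p = 5.64e-05). This was the lowest ratio of HS+REC to HS of any member in siLonp1 (0.548).

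The other 4 genes of this group were raised less. BCL10, an adaptor that links receptors to NF-kB, rose in siLonp1 from 17.6, 16.6 and 18.7 CPM in Ctrl to 50.7, 50.9 and 47.9 in HS, by 1.55 (adjusted p = 1.9e-12) on the log2 scale. CDKN1A (p21), an inhibitor of cyclin-dependent kinases, rose from 9.14, 7.75 and 8.78 to 23.0, 22.3 and 20.04 CPM, by 1.40 (adjusted p = 8.53e-10). CDKN2B (p15), an inhibitor of CDK4 and CDK6, and PMAIP1 (NOXA), a BH3-only protein that opposes MCL1, were raised by HS in siLonp1 without passing the 2-fold limit. CDKN2B read 35.7, 35.6 and 38.1 CPM in Ctrl, 65.3, 63.0 and 70.0 in HS and 106, 99.8 and 105 in HS+REC, with log2 fold changes of 0.91 (adjusted p = 1.22e-09) in HS and 1.59 (adjusted p = 4.47e-14) in HS+REC. PMAIP1 read 31.1, 31.3 and 35.2, then 56.8, 50.2 and 56.9 and 70.1, 70.9 and 62.1 CPM, with log2 fold changes of 0.80 (adjusted p = 8.1e-08) and 1.14 (adjusted p = 1.5e-10). Both thus stepped up from Ctrl to HS and again to HS+REC, with no overlap between successive groups of siLonp1 libraries.

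Regulators of transcription and chromatin are described by 12 members, and all 12 were called as raised by HS and by HS+REC in siLonp1. The median log2 fold change by HS in siLonp1 was 1.60 in this group. NKRF, a repressor of NF-kB targets that also works in ribosomal RNA processing, was measured at 83.3, 78.2 and 77.9 CPM in Ctrl scramble, 208, 224 and 219 in HS and 189.7, 235 and 203 in HS+REC. In siLonp1 it stood at 83.9, 84.2 and 92.4 in Ctrl, 300.4, 318 and 307 in HS and 262, 297 and 199 in HS+REC. The HS libraries of siLonp1 lay above those of scramble, and replicate 3 of HS+REC siLonp1 lay well under the other 2. MXD1, which competes with MYC for their partner MAX, rose in siLonp1 from 21.8, 25.1 and 25.5 to 78.4, 76.7 and 80.6 CPM in HS, by 1.75 (adjusted p = 2.49e-14) on the log2 scale. RYBP, a subunit of Polycomb repressive complex 1, rose from 59.2, 55.2 and 56.9 to 114, 126 and 119 CPM, by 1.12 (adjusted p = 1.04e-09). THAP2, a zinc finger protein, was among the most strongly raised of the group, from 2.10, 1.86 and 2.52 to 17.5, 15.2 and 16.9 CPM, by 2.99 (adjusted p = 1.66e-15).

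MAFF, a small Maf protein without a transactivation domain, was measured at 20.8, 21.3 and 20.5 CPM in Ctrl scramble, 42.4, 47.7 and 47.5 in HS and 34.7, 43.1 and 47.6 in HS+REC, and at 39.4, 38.9 and 39.2, 84.7, 84.1 and 80.8 and 107, 86.7 and 73.8 CPM in the same conditions of siLonp1. In each condition every siLonp1 library lay above every scramble library.

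Developmental transcription factors, which specify limb, skin, neural or glandular cell types, are described by 6 members, TBX3, HOXC13, DLX2, DLX3, ISL2 and GATA3. In siLonp1, 5 were called as raised by HS and all 6 by HS+REC. TBX3, a T-box repressor, rose in siLonp1 from 14.49, 15.2 and 14.1 CPM to 80.3, 91.5 and 86.8 in HS, by 2.61 (adjusted p = 2.19e-16) on the log2 scale, and HOXC13, a homeobox factor of hair and nail, from 14.2, 14.9 and 13.1 to 63.0, 65.4 and 61.1 CPM, by 2.21 (adjusted p = 9.74e-16). DLX2, a homeobox factor of jaw and forebrain, was higher in siLonp1 than in scramble throughout. It read 1.05, 1.42 and 0.913 CPM in Ctrl scramble, 5.20, 6.02 and 5.52 in HS and 4.09, 5.61 and 6.15 in HS+REC, against 2.47, 3.02 and 3.45, 13.04, 14.48 and 12.5 and 13.2, 11.9 and 9.13 CPM in siLonp1. The relative rise by HS was nonetheless close in both arms, at 4.95 times Ctrl in scramble and 4.48 times in siLonp1.

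ISL2, a LIM homeobox factor of motor neurons, showed the clearest second step. Its scramble libraries held 6.26, 6.82 and 6.70 CPM in Ctrl, 17.0, 18.2 and 15.4 in HS and 19.0, 21.1 and 21.7 in HS+REC. Its siLonp1 libraries held 5.73, 7.33 and 6.36, 13.5, 12.3 and 13.2 and 26.0, 24.8 and 20.6 CPM. No library of HS siLonp1 reached the level of any HS+REC siLonp1 library, and the log2 difference of 0.90 (standard error 0.09, adjusted p = 6.34e-08) between them was the largest upward one among the members. The call for HS in siLonp1 (1.06 on the log2 scale) rested on a fold change just over 2, and the log2 value was 0.98 without replicate 1 of Ctrl siLonp1. GATA3, at 3.40 to 3.94 CPM in HS siLonp1, was the lowest of the group and was not called there by the 2-fold limit, with a log2 fold change of 0.73 (adjusted p = 0.000426). Its call in HS+REC (1.12 on the log2 scale) fell to 0.97 without replicate 1 of Ctrl siLonp1 and to 0.99 without replicate 1 of HS+REC siLonp1, under the 2-fold limit.

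RNA processing was represented by 8 members, of which 7 were called as raised by HS and 6 by HS+REC in siLonp1. CLK4 and CLK3 encode kinases that phosphorylate SR proteins and so release splicing factors from nuclear speckles. CLK4 was measured at 6.05, 5.13 and 6.04 CPM in Ctrl scramble, 21.6, 22.3 and 23.6 in HS and 19.1, 22.1 and 19.6 in HS+REC, and at 3.54, 4.14 and 3.66, 25.8, 22.3 and 24.1 and 15.2, 15.3 and 13.3 CPM in siLonp1. CLK3 read 19.7, 22.3 and 19.3, 50.4, 49.8 and 48.9 and 74.8, 64.5 and 72.1 CPM in the same siLonp1 groups. The kinases parted in recovery: from HS to HS+REC in siLonp1 CLK4 changed by -0.69 (standard error 0.09, adjusted p = 9.6e-07) on the log2 scale and CLK3 by 0.54 (standard error 0.06, adjusted p = 5.06e-07). KIAA0907 (KHDC4), a KH domain protein of splicing, behaved as CLK4 did, at 22.6, 26.1 and 23.2 CPM in Ctrl siLonp1, 149, 151 and 148 in HS and 104, 113 and 91.9 in HS+REC, with a change of -0.51 (adjusted p = 3.23e-05) from HS to HS+REC. RSRC2, an arginine and serine rich protein, rose in siLonp1 by 1.45 (adjusted p = 3.13e-14) in HS and by a further 0.27 (adjusted p = 0.00269) to HS+REC. PRPF38B, related to a factor of spliceosome activation, was at 88.7, 101 and 90.4 CPM in Ctrl siLonp1 and 172, 177 and 180.1 in HS, a log2 fold change of 0.97 (adjusted p = 7.48e-12) that missed the 2-fold limit and came to 1.02 without replicate 2 of Ctrl siLonp1.

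Receptors, signalling proteins and secreted or surface proteins contributed 11 members, of which 8 were called as raised by HS and all 11 by HS+REC in siLonp1. From HS to HS+REC in siLonp1, 7 of the 11 were higher and 0 lower at an adjusted p of at most 0.05, where 16.3% and 15.6% of all genes tested were, and since the group was put together with these values known, nothing about signalling genes is read from the count. RGS2 (chr1:192809039-192812275, plus strand), which shortens signalling by G proteins, was low in Ctrl, at 2.45, 2.18 and 2.31 CPM in scramble and 1.41, 1.71 and 1.57 in siLonp1. It reached 18.7, 20.5 and 25.0 CPM in HS scramble and 29.1, 25.4 and 29.1 in HS siLonp1, and it stood at 20.8, 29.8 and 28.5 and 28.9, 25.3 and 15.8 CPM in HS+REC. The HS siLonp1 libraries lay above all HS scramble libraries, and the HS+REC libraries of the arms overlapped. The log2 fold change in siLonp1 was 4.20 (standard error 0.21, adjusted p = 1.42e-13) in HS and 3.98 (standard error 0.21, adjusted p = 2.49e-13) in HS+REC.

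MICB encodes a surface ligand of NKG2D, the receptor by which natural killer cells recognise stressed cells. It was measured at 12.8, 13.3 and 13.4 CPM in Ctrl scramble, 81.5, 73.1 and 80.6 in HS and 105, 100.02 and 97.9 in HS+REC. In siLonp1 it stood at 16.3, 16.6 and 16.4 CPM in Ctrl, 80.8, 74.6 and 78.3 in HS and 99.3, 93.1 and 94.8 in HS+REC. Replicates were close together in every group, and each HS+REC library lay above each HS library of its arm. MICB rose in siLonp1 by 2.29 (standard error 0.06, adjusted p = 1.27e-18) on the log2 scale in HS and by 2.62 (standard error 0.06, adjusted p = 9.46e-20) in HS+REC. Its neighbour and close relative MICA was the gene just outside the limit on the ratio of HS+REC to Ctrl, with 1.99 against 7.68 for MICB in scramble, and reads that the relatives share could have been split between them.

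CYR61 (CCN1) and CTGF (CCN2), secreted matricellular proteins and common readouts of YAP activity, had lower ratios of HS to Ctrl in siLonp1 (1.42 and 1.82) than in scramble (2.30 and 2.35). CYR61 was measured at 82.3, 72.7 and 69.9 CPM in Ctrl scramble, 182, 178 and 157 in HS and 172, 193 and 209 in HS+REC, and at 115, 101 and 103, 152, 153 and 147 and 274, 259.6 and 198 CPM in siLonp1. CTGF read 45.4, 41.4 and 44.5, 106, 102 and 101 and 107, 117 and 122 CPM in scramble and 44.6, 39.8 and 43.0, 72.2, 81.1 and 79.2 and 108, 103 and 78.2 CPM in siLonp1. For CYR61 the Ctrl level was higher in siLonp1 and the HS level lower, and for CTGF the HS level was lower, each without overlap of the arms. In siLonp1 CYR61 rose by 0.55 (standard error 0.10, adjusted p = 7.7e-05) on the log2 scale in HS and by 1.28 (standard error 0.10, adjusted p = 2.21e-10) in HS+REC, and CTGF by 0.92 (adjusted p = 2.13e-08) and 1.27 (adjusted p = 6.26e-11). GPR132, a G protein coupled receptor, had the largest drop in this ratio of any member, from 4.03 in scramble to 1.94 in siLonp1. It read 4.39, 4.27 and 4.16 CPM in Ctrl and 18.3, 17.5 and 15.8 in HS of scramble, against 8.004, 7.70 and 6.98 and 13.4, 14.7 and 15.9 CPM in siLonp1, where its log2 fold change of 1.00 was at the 2-fold limit.

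GPRC5A, a retinoic acid inducible receptor, rose in siLonp1 from 75.5, 73.2 and 71.4 CPM in Ctrl to 177, 192 and 173 in HS and 218, 240.1 and 217 in HS+REC, with a log2 fold change by HS of 1.35 (adjusted p = 1.7e-14). The miRNA precursor MIR614 lies within an exon of GPRC5A on the same strand, and its counts can be reads of GPRC5A. The rest of this group were PRKD2, a protein kinase D, SMAD7, an inhibitor of TGF-beta signalling, MMP19, a metalloprotease, GABRE, a GABA receptor subunit, and GRIN2B, an NMDA receptor subunit. Their log2 fold changes by HS in siLonp1 ran from 0.75 for MMP19 to 1.83 for GABRE.

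**Figure D3:**
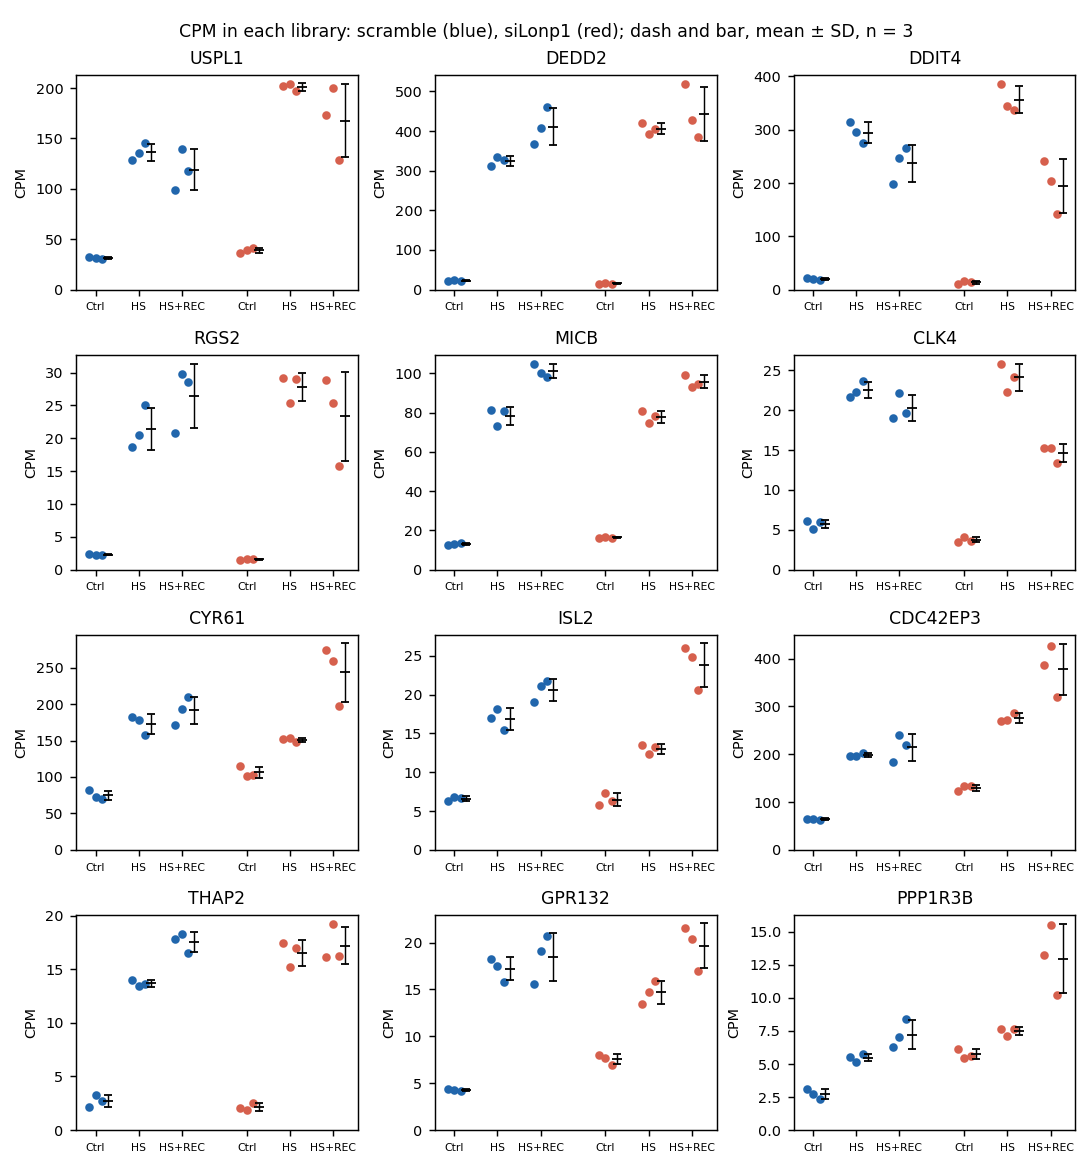
CPM of 12 members in each of the 18 libraries, on linear axes from 0, with scramble in blue and siLonp1 in red and with the mean and SD of the 3 replicates beside each group. Every HS and HS+REC library lies above the Ctrl libraries of its arm. DDIT4 and CLK4 drop from HS to HS+REC in siLonp1, while CYR61, ISL2, CDC42EP3 and PPP1R3B climb, and in most panels the HS+REC libraries spread most.

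The remaining members are less tied to a single process. CDC42EP3, an effector of the GTPase CDC42 that acts on septins, was measured at 65.1, 64.7 and 61.8 CPM in Ctrl scramble, 196, 196 and 203 in HS and 183, 240.1 and 219 in HS+REC, and at 123, 133 and 133, 269, 271 and 287 and 387, 425 and 319.6 CPM in siLonp1. Every siLonp1 library lay above every scramble library of its condition. MAP1A, a microtubule-associated protein, read 2.48, 2.29 and 2.99, 12.5, 13.7 and 12.9 and 16.8, 15.3 and 16.5 CPM in scramble and 1.79, 2.03 and 1.16, 6.30, 8.54 and 9.12 and 12.8, 13.9 and 12.9 CPM in siLonp1. It rose in siLonp1 by 2.31 (adjusted p = 1.92e-11) on the log2 scale in HS and by a further 0.76 (adjusted p = 2.22e-05) to HS+REC. AKR7L, an aldo-keto reductase relative, took a like second step, with 0.556, 0.892 and 0.592 CPM in Ctrl siLonp1, 4.36, 3.65 and 4.81 in HS and 7.40, 7.42 and 7.22 in HS+REC. Reads of AKR7L may be shared with close relatives of its family. AKR7A3, which ends 8379 bases upstream on the same strand, rose in siLonp1 by 1.13 on the log2 scale in HS and by 2.22 in HS+REC.

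PPP1R3B, which targets protein phosphatase 1 to glycogen, had the smallest rise by HS in siLonp1. It read 3.09, 2.71 and 2.36 CPM in Ctrl scramble, 5.502, 5.19 and 5.74 in HS and 6.26, 7.05 and 8.38 in HS+REC, and 6.16, 5.42 and 5.61, 7.66, 7.11 and 7.67 and 13.2, 15.5 and 10.2 CPM in siLonp1. The log2 fold change was 0.43 (standard error 0.13, adjusted p = 0.0118) in HS and 1.26 (standard error 0.13, adjusted p = 2.05e-08) in HS+REC. TCP10L, a leucine zipper protein, went the other way in recovery, from 2.35, 2.33 and 1.93 CPM in Ctrl siLonp1 to 6.44, 6.83 and 6.06 in HS and back to 4.02, 3.96 and 4.45 in HS+REC, a change of -0.61 (adjusted p = 0.000302) from HS. Its log2 fold change of 0.99 in HS+REC fell just short of the 2-fold limit and passed it in 4 of the 9 fits that left out a siLonp1 library and in the fit of the siLonp1 libraries alone, where it was 1.003.

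Of the 69 members, 6 are pseudogenes or a miRNA precursor, namely CCT6P1, RAET1K, BMS1P4, BMS1P5, BMS1P6 and MIR614, and their counts can hold reads of related genes. RAET1K belongs to the family of NKG2D ligands next to the ULBP genes and was measured at 1.28, 1.36 and 1.52 CPM in Ctrl scramble and 9.51, 8.62 and 9.70 in HS, and at 0.859, 0.743 and 1.03 and 5.53, 4.46 and 5.57 CPM in siLonp1. In HS+REC it read 9.44, 10.1 and 9.12 CPM in scramble and 5.73, 5.73 and 4.31 in siLonp1. The siLonp1 libraries lay lower than the scramble libraries in all 3 conditions. In siLonp1, 5 of the 6 genes were called as raised by HS and 5 by HS+REC.

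The 10 members that were not called as raised more than 2-fold by HS in siLonp1 were CYR61, PRPF38B, CTGF, CDKN2B, PMAIP1, FAM179B, MMP19, PPP1R3B, MIR614 and GATA3. All had a positive log2 fold change, from 0.43 for PPP1R3B to 0.97 for MIR614, at an adjusted p of at most 0.0118. In HS+REC the members not called were PRPF38B, CCT6P1, TYW1B, FAM179B and TCP10L.

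Whether the transcripts were held from HS to HS+REC was read in siLonp1 from the same band that defined it in scramble. The ratio of HS+REC to HS in siLonp1 had a median of 1.02 over the members and ran from 0.548 to 1.83. It lay within this band for 52 members, under it for 7 and above it for 10, while 83.9% of all genes tested lay within the band. In the edgeR test, 23 members (33.3%) were higher in HS+REC than in HS in siLonp1 at an adjusted p of at most 0.05, where 16.3% of all genes were, and 14 (20.3%) were lower, where 15.6% were. The lower count was 8 without replicate 3 of HS+REC siLonp1. In that library the members took 0.541% of the counts, against 0.671% and 0.696% in the other 2 of its group.

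The members higher in HS+REC than in HS in siLonp1 were led by ISL2 (0.90 on the log2 scale), PPP1R3B (0.83), AKR7L (0.81), MAP1A (0.76), CYR61 (0.73) and CDKN2B (0.68). Those lower were led by DDIT4 (-0.83), CLK4 (-0.69), TCP10L (-0.61) and KIAA0907 (-0.51). The weakest call, a change of -0.25 (adjusted p = 0.0488) for NKRF, passed the threshold in the full fit and was lost in 7 of the 9 fits that left out a siLonp1 library. GATA3 and DLX3 also crossed the threshold in some of these fits, in which GATA3 stayed between 0.25 and 0.39 on the log2 scale.

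Genes raised by heat that had been classed by their scramble ratio had medians in the same order in siLonp1. The 8 genes that had fallen in scramble had a median ratio of HS+REC to HS of 0.672 in siLonp1, and all 8 lay under 1. The 35 genes that had risen further had a median of 1.74, and all 35 lay above 1. The 69 members lay between them with 33 under and 36 above 1. Single members, from 0.548 to 1.83, overlapped both other classes, of which the falling genes reached up to 0.791 and those that rose further began at 1.03. This is a description over genes of the same libraries, and no test was made.

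**Figure D4:**
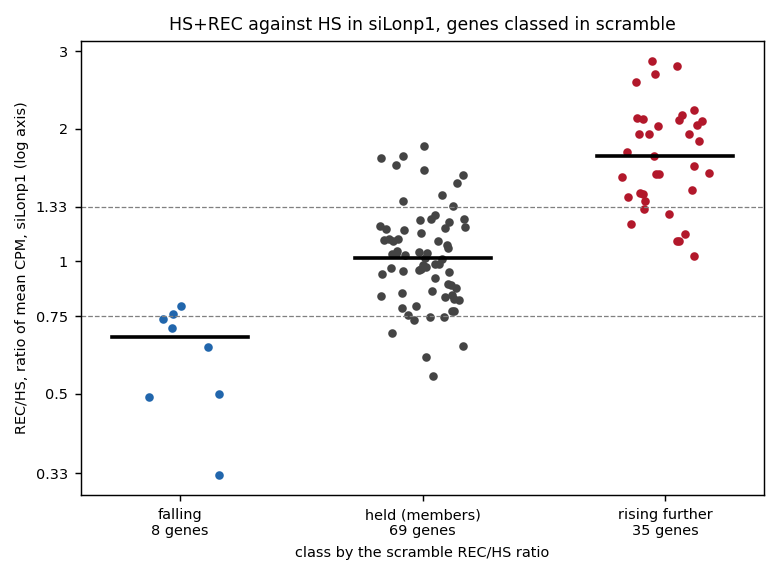
Ratio of mean CPM in HS+REC to that in HS in siLonp1 (y axis, log scale) for genes raised by heat, grouped by the same ratio in scramble: 8 falling, 69 held (the members) and 35 rising further. Points are genes, black bars are medians (0.672, 1.02 and 1.74), and dashed lines mark the limits of the band. The members centre on 1, with 7 under and 10 above the band.

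Levels in siLonp1 relative to scramble differed widely between members but balanced out over the set. The median ratio of siLonp1 to scramble was 0.908 in Ctrl, 1.01 after HS and 0.980 after HS+REC, beside 0.956, 0.936 and 0.95 over all genes tested. In Ctrl, 23 members had all siLonp1 libraries above all scramble libraries (25.6% of all genes tested) and 28 had them below (38.1%). In HS the counts were 29 above (22.3%) and 25 below (40.7%), and in HS+REC 14 above (20%) and 20 below (33.3%). As the scramble means chose the members, these counts are a description.

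Among the members, 11 (15.9%, against 13.6% of all genes tested) lay above scramble without overlap in all 3 conditions, namely CDC42EP3, GPRC5A, PRPF38B, CPEB4, MAFF, PMAIP1, DLX3, CDKN1A, MMP19, DLX2 and PPP1R3B. The ratio of DLX2 was the widest of these in each condition, at 2.65 in Ctrl, 2.39 after HS and 2.16 after HS+REC, and that of MAFF was 1.88, 1.81 and 2.13. Another 9 (13%, against 24.2%) lay below scramble in all 3 conditions, namely AP4B1, SMAD7, TMEM79, MAP1A, BMS1P6, RAET1K, AKR7L, HEXIM2 and CSRNP3. CSRNP3, a nuclear protein rich in cysteine and serine, was at 0.423 of scramble in Ctrl, 0.471 after HS and 0.474 after HS+REC, and SMAD7 at 0.639, 0.577 and 0.578. In 6 members (8.7%, against 0.257% of all genes tested), DEDD2, DDIT4, TBX3, RGS2, C7orf60 and CCDC121, siLonp1 was lower than scramble in Ctrl and higher in HS without overlap. The rule used the scramble levels in both conditions, so nothing is read from these shares.

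**Figure D5:**
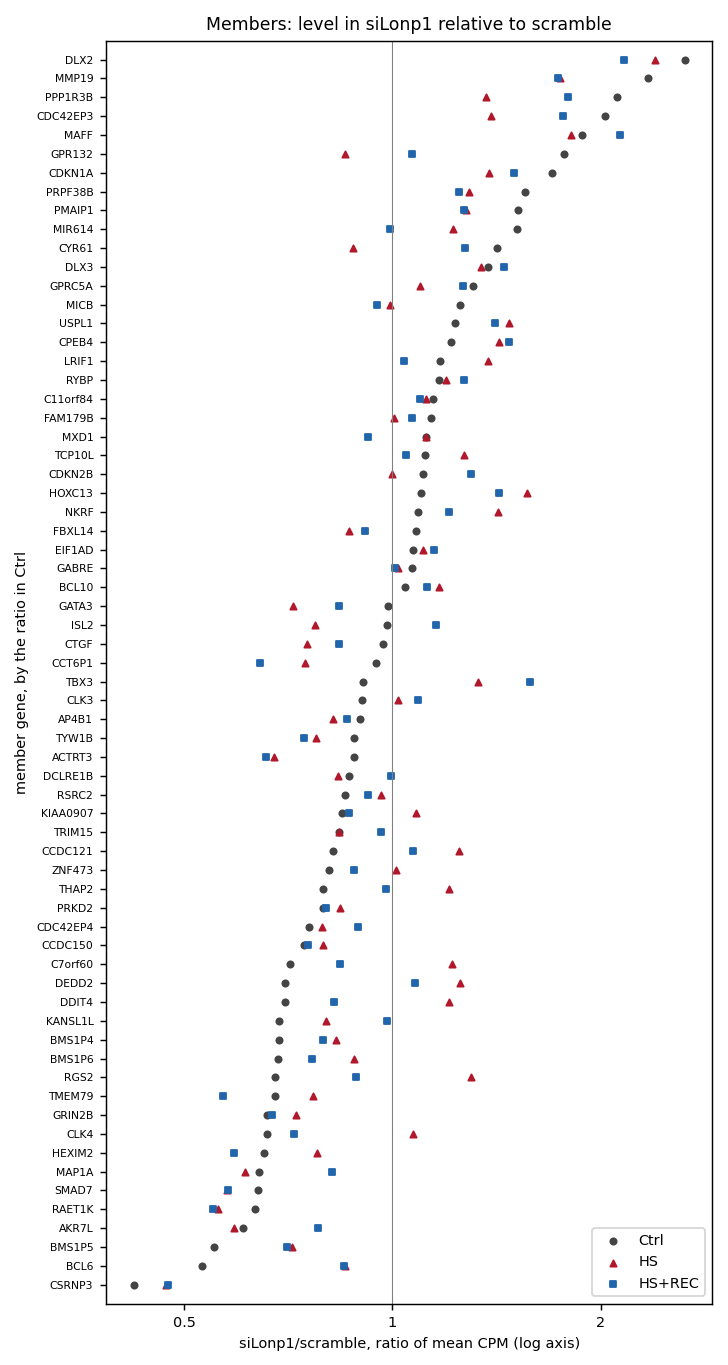
Ratio of mean CPM in siLonp1 to that in scramble for 66 members (rows, ordered by the ratio in Ctrl), with circles for Ctrl, triangles for HS and squares for HS+REC, on a log axis. Ratios run from 0.423 (CSRNP3) to 2.65 (DLX2), and a vertical line marks 1. For DEDD2, DDIT4 and RGS2 the circle lies left of 1 and the triangle right of it.

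Pathways around the members were examined with lists written for this purpose, of which some genes were known from the study itself, so their counts are not independent evidence. Of 44 HSF1 targets outside the left-out families, 21 were raised more than 2-fold by HS in siLonp1, 27 by HS+REC, and DEDD2, RGS2 and USPL1 were members. Of 31 genes of growth arrest and apoptosis, 12 were raised by HS, 14 by HS+REC and 5 were members. Of 45 immediate early and growth factor genes, 15 were raised in each condition, and CTGF, CYR61 and MAFF were members. The medians of the log2 fold change by HS were 0.90, 0.80 and 0.47 in these lists, against 0.00 over all genes tested.

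The other lists had lower medians by HS, from 0.09 to 0.33. Of 38 genes of the ubiquitin, proteasome and autophagy systems, 8 were raised by HS and 9 by HS+REC, 1 was lowered by HS+REC, and 2 were members. Of 36 splicing and nuclear speckle genes, 7 were raised by HS and 6 by HS+REC, with 4 members. Of 55 chromatin and transcription regulators, 12 were raised and 1 was lowered by HS, 11 were raised by HS+REC, and MXD1 and RYBP were members. Of 27 genes of cytokines, their receptors and NF-kB, 5 were raised by HS, 6 were raised and 1 was lowered by HS+REC, and 0 were members. Of 18 genes of the NRF2 and metal response, 0 were raised by HS and 7 by HS+REC, where its median was 0.53 beside 0.41 in the immediate early list, and 0 were members. For comparison, 3.42% of all genes tested were raised by HS and 4.51% by HS+REC.

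In the annotation, 65 of the 69 members were matched to GENCODE release 44, and 62 of them were protein coding, 2 transcribed pseudogenes and 1 a miRNA. They had a median of 5 exons in the canonical transcript, against 9 over the 12481 genes tested that were matched, and a median gene span of 16051 bases against 32136. Their transcripts were of ordinary length, with medians of 3083 and 3254 bases, and the genes that fell or rose further in HS+REC also had a median of 5 exons. The members lay on 22 chromosomes. A gene starting within 1000 bases on the opposite strand was found for 8 members (12.3%, against 14% of genes tested).

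Among these pairs, AP4B1, a subunit of an adaptor complex for vesicles, and DCLRE1B (Apollo), a nuclease of telomeres, are both members and start 527 bases apart. In siLonp1 AP4B1 rose by 1.30 (adjusted p = 7.2e-13) on the log2 scale in HS and DCLRE1B by 1.27 (adjusted p = 1.16e-12). FAM179B (TOGARAM1), a protein of cilia, shares its start region with KLHL28, which rose by 1.17 in HS and by 0.41 in HS+REC, beside 0.94 and 0.99 for FAM179B. The partners of RSRC2, EIF1AD, ZNF473, THAP2 and CCDC121 had log2 fold changes by HS between -0.26 and 0.14 and were not called at any fold. In HS+REC 4 of these 5 partners differed from Ctrl in siLonp1 at an adjusted p of at most 0.05, by -0.39 for ZFC3H1 beside THAP2, -0.32 for KNTC1 beside RSRC2, 0.17 for BANF1 beside EIF1AD and 0.43 for GPN1 beside CCDC121. HOXC13 and KANSL1L overlap exons of HOXC13-AS and RPE on the opposite strand, and because the strand setting of the counting is not given in the sources used here, reads of these pairs may not be separated.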

How the data were processed

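RNAseq was analysed in 18 libraries of SW620 cells, 3 in each of 6 groups, which were assigned from the names of the samples. The authors prepared libraries of mRNA with a stranded kit and read them as paired ends. They aligned the reads with STAR 2.7.3a to hg38 and deposited raw counts per gene symbol, made with featureCounts in R 3.6.3. The strand setting, the treatment of reads shared between genes and the release of the UCSC annotation are not given in the sources used here. All 18 columns were used, and the members and the lists were chosen with earlier results of these data known.

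CPM were computed from the column sums without further scaling. The 12832 genes that exceeded 1 CPM in 3 or more libraries were tested in R 4.3.3 with edgeR 4.0.16, using TMM factors, 1 model with a mean for each of the 6 groups, the quasi-likelihood test and Benjamini-Hochberg adjustment over all genes tested. Only contrasts within siLonp1 were tested, since the scramble libraries chose the members. A gene was called as raised when its adjusted p did not exceed 0.05 and its fold change exceeded 2, and for HS+REC against HS at any fold. The steps were tested on simulated counts. Replicates differed by more than counting error (chi-square per degree of freedom from 3.62 to 27.5), so none was treated as a duplicate. Library totals ranged from 30815860 to 47279297 counts, and the lowest count of a described member in a library was 22. Of the 69 members, 3 enter the counts and medians over all members but are not reported here, and they are left out of the plots with 1 row or label per gene and of the groups by role.

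Genes were named by rule: the 10 with the highest ratio of HS to Ctrl in scramble with at least 10 counts in each Ctrl scramble library, the 8 with the highest HS level, those nearest each limit of the rule, up to 4 in each list, the 3 highest and the 3 lowest in the ratio of HS+REC to HS in siLonp1, and 4 not called in HS. Other members, and the groups by role, were picked after their values had been seen. Alternatives were other size factors, DESeq2 1.42.0, the siLonp1 libraries alone, a replicate block, other thresholds and bands, and each library left out in turn. Gene structure came from GENCODE release 44, and levels per kilobase use the canonical transcript.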

Additional observations from a re-analysis of the deposited data

How the results depend on the processing

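The number of members was 114 with a minimum of 1 CPM in HS in place of 5, and between 53 and 89 under all other alternatives, which were another minimum, narrower and wider bands, TMM and RLE scaling, and each scramble library left out. Of the 69 members, 58 stayed in the list with TMM scaling, 60 with RLE scaling, and 60 to 67 with a scramble library left out, lowest without replicate 2 of HS+REC scramble. The count of members lower in HS+REC than in HS in siLonp1 was 14, fell to 8 at an adjusted p of at most 0.01 and ranged from 8 to 16 when each siLonp1 library was left out in turn, with 8 without replicate 3 of HS+REC. The cause was not tested. The other counts of members called stayed within 1.5 times their value. The settings were RLE factors, library size only, DESeq2, the siLonp1 libraries alone, no fold change limit, the stricter threshold and each library left out. The counts were 58 to 69 raised by HS, 59 to 69 raised by HS+REC, and 17 to 26 higher in HS+REC than in HS. The count within the band was only rerun with TMM scaling (55) and with each HS or HS+REC siLonp1 library left out (49 to 53). With the replicate block, 59 members were raised by HS, 64 by HS+REC, 22 were higher and 14 lower in HS+REC. The replicate numbers were not taken to pair the samples. Only 2 of 9 same-numbered pairs of siLonp1 libraries had deviations from the group means that correlated above 0.1 (-0.158 to 0.262). The block changed no other call by over 1.5 times. For HS with HS+REC, however, same-numbered pairs correlated at 0.262, 0.0904 and 0.124, and differently numbered ones at -0.233 to 0.124. A pairing of these groups is therefore not excluded. The count of members that also met the rule on siLonp1 values ranged from 38 to 45 with each siLonp1 library left out or with TMM scaling, alternatives chosen after seeing the data. Of 1320 alternative values for single genes, 1292 stayed on their side of the threshold, 22 lost it, 6 gained it and 0 changed sign. With a median of 40847024.5 counts in a library, depth limited AKR7L most among the members described here, at 22 counts in a Ctrl library.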
